A study of Mus musculus with 6 samples.

Results

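Tropomyosins are rod-shaped coiled-coil dimers that join head to tail and lie along actin filaments, where they set how well myosin, cofilin and other proteins reach the filament. Mouse has 4 tropomyosin genes, Tpm1, Tpm2, Tpm3 and Tpm4. Alternative promoters and alternative exons let Tpm1, Tpm2 and Tpm3 give several proteins each. Products of Tpm1 and Tpm2 are known from striated muscle, smooth muscle and the stress fibres of adherent cells, whereas the main products of Tpm3 and Tpm4 in non-muscle cells are short cytoskeletal forms. All 4 genes were found among the 42450 genes of the deposited table, and all 4 passed the filter on low counts that left 18905 genes. They were selected on their values in the comparison described here, namely Srrm2+/- against wild-type (WT) cells. Their levels and differences are therefore given as a description, without a test.

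The study asked what a lower dose of Srrm2, a splicing factor of nuclear speckles, does to the transcriptome of mouse embryonic stem cells. Total RNA was sequenced from 3 WT cultures of the male line E14tg2a.4 and from 3 cultures of Srrm2+/-, an E14tg2a.4 derivative with a gene trap that truncates 1 allele of Srrm2. Cells of both groups grew on gelatin without feeders in medium with LIF and were moved to serum-free ESGRO medium with LIF before collection. The Srrm2+/- group is 1 gene-trap line (SIGTR CG0630), its replicates were independently frozen batches, and the WT batches had been frozen at later passages, so that genotype, clone and passage cannot be told apart. Values of p measure the spread between these cultures alone.

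The libraries held 54151532 to 69933465 estimated counts. Pearson correlations of log2 CPM (counts in each 1000000 of the library) across tested genes were 0.985 to 0.989 within the groups and 0.971 to 0.975 between them, and no library stood apart. Normalized counts of Srrm2 averaged 95.7 ± 3.94 CPM over WT and 59.3 ± 3.02 CPM over Srrm2+/- libraries (values after ± are SDs, here and throughout n = 3). The log2 difference was -0.69 with an SE of 0.05 (adjusted p = 2.38e-05, edgeR), and the targeted gene was lower in every library labelled Srrm2+/-. Embryonic stem cell markers such as Tdgf1 were abundant in every library, with a summed level of the 9 markers of 5173 to 5351 CPM in WT against 4486 to 4609 CPM in Srrm2+/-. Of these markers 6 were called lower and 1 higher, against 11.7% lower and 13.6% higher over all tested genes. The call of Dppa5a, 1 of those lower, was lost in 5 of 15 alternatives. The part of these markers in the results was not tested.

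The 4 genes lie on different chromosomes, and the identical stretches of coding sequence that they share are short. This bears on how well reads can be assigned to each. Tpm1 (ENSMUSG00000032366) occupies the minus strand at chr9:67022590-67049406 on GRCm38. Tpm2 (ENSMUSG00000028464) is on the minus strand at chr4:43514711-43523765. Tpm3 (ENSMUSG00000027940) lies on the plus strand at chr3:90072649-90100902, and Tpm4 (ENSMUSG00000031799) on the plus strand at chr8:72134975-72153142. GENCODE lists 21 transcripts for Tpm1, 16 of them protein coding, against 6 with 4 coding for Tpm2, 16 with 7 coding for Tpm3, and 2 with 1 coding for Tpm4. The deposited table sums all transcripts of a gene, so long and short tropomyosin forms could not be separated.

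The longest identical stretches between coding sequences are shown for some pairs of members, and the capitals in the Tpm1 and Tpm2 stretch mark the start codon. The stretch of Tpm1 and Tpm3 is shorter than the 31-base words counted below, and these genes shared no such word.
Tpm1 and Tpm2: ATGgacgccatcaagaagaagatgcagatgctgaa
Tpm3 and Tpm4: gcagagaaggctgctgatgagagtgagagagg
Tpm1 and Tpm3: cagaaactgaagtacaaggccat
The stretch shared by Tpm1 and Tpm2 spans 35 bases and opens the coding sequence of the long forms of both genes. Tpm3 and Tpm4 share at most 32 bases, Tpm1 and Tpm3 at most 23, and Tpm2 and Tpm3 at most 17. For Tpm1 and Tpm4 the longest run is also 23 bases, and for Tpm2 and Tpm4 it is 18. Similar stretches with mismatches were not counted. Of the 31-base words in the transcripts of Tpm1, 0.134% also occurred in another gene, and for Tpm2 the share was 0.299%. Reads of these genes are thus nearly always separable at that word length.

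Retrocopies and antisense transcripts overlapped more with the other members. For Tpm3, 27% of the 31-base words occurred elsewhere, nearly all of them in the retrogene Tpm3-rs7 on chromosome 14, which held 30.99 to 74.1 estimated counts per library beside 19175 or more for Tpm3. Tpm3-rs2, another copy, had 0 counts in every library. For Tpm4, 20% of the words were shared, mainly with the processed pseudogene Gm7809, which held 37.9 to 126 counts, and with the antisense gene Gm26586, which held 20.3 to 71.5 counts. Gm16091, which overlaps Tpm4 on the opposite strand, held 47 to 138 counts. All these genes were small beside Tpm3 and Tpm4, and the strand setting of the counting is not given in the sources used here.

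Tpm1, which encodes α-tropomyosin of muscle and non-muscle cells, differed most between the groups. Its counts were 4843, 4534 and 4307 in WT replicates 1, 2 and 3 and 18840, 17790 and 15810 in Srrm2+/- replicates 1, 2 and 3. On the normalized scale these were 87.3, 78.4 and 80.4 CPM in WT and 272, 258 and 256 CPM in Srrm2+/-. Every Srrm2+/- library held more Tpm1 than every WT library. Means were 82.0 ± 4.64 CPM and 262 ± 8.78 CPM (SD, n = 3), with a log2 fold change of 1.68 (SE 0.05), or 3.20-fold. Among all 18905 genes, 2.16% had a larger log2 fold change.

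Tpm2 encodes β-tropomyosin, the partner of α-tropomyosin in many muscle dimers, and was the least abundant member. Its counts were 726, 769 and 752 in WT and 2492, 2582 and 2258 in Srrm2+/-. Normalized levels were 13.1, 13.3 and 14.04 CPM in WT and 36.0, 37.4 and 36.6 CPM in Srrm2+/-. The groups did not overlap, and the Srrm2+/- libraries differed among themselves by at most 1.43 CPM. Means of 13.5 ± 0.501 CPM and 36.7 ± 0.719 CPM (SD, n = 3) gave a log2 fold change of 1.44 (SE 0.05), or 2.72-fold.

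Tpm4 encodes a short cytoskeletal tropomyosin and had a WT level close to that of Tpm1 on the CPM scale, which does not correct for length. Its counts were 4629, 4549 and 4255 in WT and 10370, 10412 and 9407 in Srrm2+/-. Normalized levels were 83.4, 78.7 and 79.4 CPM in WT and 149.8, 151 and 152 CPM in Srrm2+/-. The Srrm2+/- libraries nearly coincided, with a coefficient of variation of 0.868%, and all lay above WT. The log2 fold change was 0.91 (SE 0.04), or 1.88-fold, from 80.5 ± 2.54 CPM to 151 ± 1.31 CPM (SD, n = 3).

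Tpm3, the source of abundant short tropomyosins in non-muscle cells and of a slow-muscle form, was the most abundant member and differed least. Its counts were 19279, 20376 and 19175 in WT and 27084, 25094 and 24430 in Srrm2+/-. Normalized levels were 347, 352 and 358 CPM in WT and 391, 364 and 396 CPM in Srrm2+/-. The lowest Srrm2+/- library, replicate 2, lay 5.88 CPM above the highest WT library, which was less than the range of 32.1 CPM within Srrm2+/-. The log2 fold change was 0.12 (SE 0.04), or 1.09-fold, from 353 ± 5.29 CPM to 384 ± 17.3 CPM (SD, n = 3), and 32.8% of all tested genes had a larger one.

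**Figure D1:**
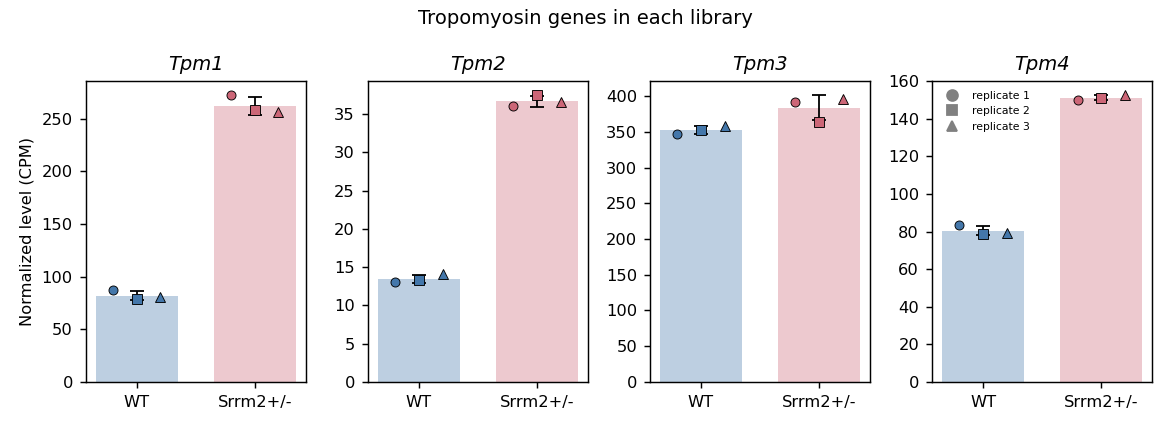
Normalized counts (CPM) of each tropomyosin gene in each library, with bars for the mean, whiskers for the SD, and circle, square and triangle for replicates 1, 2 and 3 of each group. Tpm1 lies at 78.4 to 87.3 CPM in WT and 256 to 272 CPM in Srrm2+/-, whereas the Tpm3 groups are 5.88 CPM apart.

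At an edgeR adjusted p under 0.05, 3 of the 4 tropomyosin genes (Tpm1, Tpm2 and Tpm4) were called, all higher in Srrm2+/-. Over all tested genes 25.3% were called, 13.6% higher and 11.7% lower. In all 4 tropomyosin genes every Srrm2+/- library exceeded every WT library, which held for 21.4% of all tested genes. Since the members were selected on this contrast, nothing is read from these counts. Tpm3 was also called with DESeq2, with the stricter filter of 1 CPM or more throughout a group, and without Srrm2+/- replicate 2, where its log2 fold change was 0.16. In bulk RNA, fewer cells of a type and less RNA per cell cannot be told apart.

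Levels of different genes were compared per length, as TPM (counts per length, scaled to sum to 1000000 in a library) computed with the mean length of the annotated protein coding transcripts. In WT the order was Tpm3 (245 ± 11.1 TPM), Tpm1 (52.3 ± 5.54 TPM), Tpm4 (36.4 ± 2.94 TPM) and Tpm2 (8.88 ± 0.5001 TPM), each with its SD over n = 3 libraries. In Srrm2+/- the order was unchanged at 271 ± 22.9, 169 ± 7.51, 69.4 ± 3.57 and 24.5 ± 1.02 TPM (SD, n = 3). No neighbours in either order overlapped between libraries at this length. Tpm1 moved from above 89.2% to above 97.0% of the 14704 tested protein coding genes, Tpm2 from 59.0% to 78.5% and Tpm4 from 84.9% to 92.0%, while Tpm3 stood above 97.97% and 98.1%.

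The summed relative level of tropomyosin RNA was higher in Srrm2+/- libraries, and its make-up differed. The 4 genes summed to 531, 523 and 532 CPM in WT and to 849, 810 and 841 CPM in Srrm2+/-, with no overlap. Mean sums were 529 ± 4.99 CPM and 834 ± 20.7 CPM (SD, n = 3), or 1.58-fold. Of the difference of 305 CPM, Tpm1 made up 59.1%, Tpm4 23.1%, Tpm3 10.2% and Tpm2 7.61%. The gene with the lowest fold change thus still added more CPM than Tpm2, because its level was so much higher.

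As a share of the summed TPM, Tpm3 took 71.6% ± 1.05 of WT and 50.7% ± 1.10 of Srrm2+/- (SD, n = 3). The share of Tpm1 was 15.2% ± 0.814 in WT and 31.7% ± 0.891 in Srrm2+/-. Tpm4 held 10.6% ± 0.313 and 13.0% ± 0.381, and Tpm2 2.59% ± 0.0850 and 4.60% ± 0.215. Libraries of the groups did not overlap for any of the 4 shares, with Tpm3 the one member whose share was lower in Srrm2+/-.

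**Figure D2:**
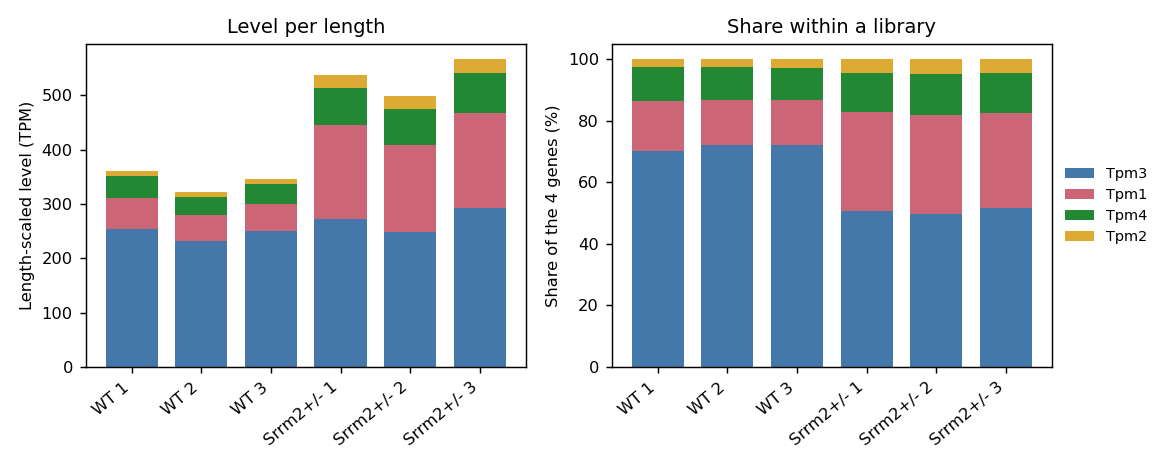
Left, TPM of the 4 tropomyosin genes stacked in each library (sums of 322 to 360 in WT and 499 to 566 in Srrm2+/-), and right, the share of each gene in that sum (percent). In the shares, Tpm3 takes 70.3% to 72.2% in the WT bars and 49.6% to 51.8% in the Srrm2+/- bars, and Tpm1 takes most of the space left.

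The place of Tpm4 in the order depended on which length was used, since a gene-level table does not say which transcripts were present. With the merged exon length, the shares in WT were 51.8% for Tpm3, 32.7% for Tpm4, 11.3% for Tpm1 and 4.14% for Tpm2. In Srrm2+/- they were then 34.1%, 37.1%, 21.9% and 6.83%, so that Tpm4 came before Tpm1 in both groups and before Tpm3 in Srrm2+/-. With the longest protein coding transcript, Tpm4 (16.4%) came before Tpm1 (12.3%) in WT only. At every length tried, Tpm3 had a lower share in Srrm2+/- and each of the others a higher one.

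Ratios of counts within a library do not depend on library size and show how far the members moved apart. The ratio of Tpm1 to Tpm3 was 0.251, 0.223 and 0.225 in WT and 0.696, 0.709 and 0.647 in Srrm2+/-, a 2.94-fold difference of means. Tpm1 to Tpm4 stood at 1.05, 0.997 and 1.01 in WT, close to parity, and at 1.82, 1.71 and 1.68 in Srrm2+/-. Tpm1 to Tpm2 differed least, with 5.73 to 6.67 in WT and 6.89 to 7.56 in Srrm2+/- (1.17-fold). Tpm4 to Tpm3 differed 1.73-fold, Tpm2 to Tpm4 1.45-fold and Tpm2 to Tpm3 2.51-fold. In none of the 6 ratios did the groups overlap, and Tpm1 and Tpm2 stayed nearest to a fixed proportion.

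**Figure D3:**
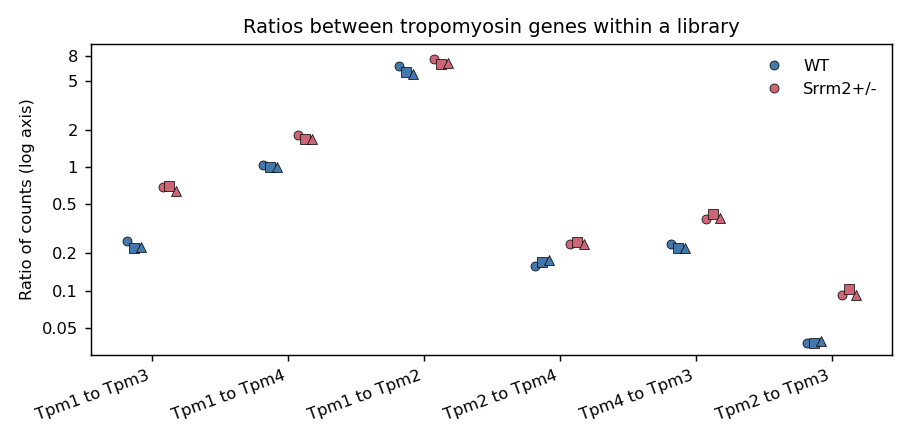
Ratios of counts between tropomyosin genes within each library on a log axis, with circle, square and triangle for replicates 1, 2 and 3 of each group. The ratio of Tpm1 to Tpm2 shows the narrowest gap between the groups (6.67 against 6.89) and Tpm1 to Tpm3 the largest fold (2.94).

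Replicates of a group differed little for any member. The largest departure from a group mean was 0.09 on the log2 scale, for Tpm1 in WT replicate 1, and the next largest were -0.08 for Tpm3 in Srrm2+/- replicate 2 and -0.06 for Tpm1 in WT replicate 2. Each was smaller than the difference between the group means of its gene, 1.68 for Tpm1 and 0.12 for Tpm3.

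Windows around RefSeq starts of each gene were examined for motifs of muscle and cytoskeletal promoters. RefSeq windows (GRCm38.p6) from 250 bases before to 50 bases after a start were given for all members, 1 each for Tpm1, Tpm2 and Tpm4 and 2 for Tpm3. These starts differ from the GENCODE gene bounds given above. The windows of Tpm4 (chr8:72135038-72135337) and 1 of those of Tpm3 (chr3:90079271-90079570) lie wholly within those bounds. The windows of Tpm1 and Tpm2 lie mostly within them. Searched on both strands were the CArG box bound by serum response factor, the MCAT element CATTCC bound by TEAD factors, the AP-1 site TGANTCA, the TATA box TATAAA and the GC box GGGCGG. The stretches below are those with a CArG box carrying 1 mismatch, or an MCAT element, in capitals.
Tpm1 (minus strand, chr9:67049416-67049443): ctcgggtccCCATATATAGtcatatcca
Tpm1 (minus strand, chr9:67049275-67049302): caagcttttCCAAAAAAGTattggctgt
Tpm1 (minus strand, chr9:67049253-67049280): ggctgtcctaaGGAATGcggtcgccccc
Tpm3 (plus strand, chr3:90072576-90072603): ctagaaagaCCATGTTAGGaagaagagg
Tpm3 (plus strand, chr3:90079350-90079377): acgacagcaCCATTTTAGTaaatgggac
Tpm3 (plus strand, chr3:90079455-90079482): accccgcccCCTTTACTGGactaaggaa
Counted from the RefSeq start, the first match of Tpm1 lies at -221 to -212 and the next at -80 to -71. Its MCAT element lies at -56 to -51, read on the opposite strand as its reverse complement.

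A CArG box without mismatch was in none of the 5 windows and in 1.63% of all 32851 RefSeq windows. One with 1 mismatch, found in the window of Tpm1 and in both windows of Tpm3 but in neither that of Tpm2 nor that of Tpm4, was in 19.9% of all windows. An MCAT element was found for Tpm1 alone among the members and in 14.7% of all windows. GC boxes were in the windows of Tpm1, Tpm2 and Tpm4 and in 1 of those of Tpm3, against 35.7% of all windows, and the GC box of Tpm3 adjoins its last CArG-like match. No AP-1 site (7.81% of all windows) or TATA box (13.6%) was found. These matches are letters in a window, and other starts of these genes were not searched.

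Genes next to the tropomyosin genes were read from the same edgeR fit. Beside Tpm2 lies Tln1, which encodes talin, the link between integrins and actin, and its level was 60.0 ± 4.63 CPM in WT against 92.4 ± 5.54 CPM in Srrm2+/- (SD, n = 3; log2 difference 0.62 with SE 0.07; adjusted p = 0.000195, edgeR). Car9, on the other side of Tpm2 at a distance of 982 bases, was under 1 CPM in every library. The nearest tested gene above Tpm1 is Tln2, the other talin gene, with 11.7, 24.2 and 15.4 CPM in WT and 20.5, 23.8 and 30.9 CPM in Srrm2+/-. These groups overlapped, and Tln2 was not called (log2 fold change 0.55, edgeR adjusted p = 0.136) unless WT replicate 2 was left out. Zfp961, which lies 141183 bases from Tpm4, was called with a log2 difference of 0.19 (SE 0.04, adjusted p = 0.0106 in edgeR). Rab8a beside Tpm4 (0.07, edgeR adjusted p = 0.203), Lactb beside Tpm1 (-0.12, 0.547) and 4933434E20Rik beside Tpm3 (-0.09, 0.336) were not called. Nup210l beside Tpm3 was low, at 0.216, 0.104 and 0.112 CPM in WT and 0.275, 0.522 and 0.324 CPM in Srrm2+/-, groups that did not overlap. Its log2 difference of 1.37 (SE 0.44, adjusted p = 0.0514 in edgeR) was not called, but it was without WT replicate 1 and when short, ribosomal and mitochondrial RNA genes were removed.

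Proteins that bind, modify or compete with tropomyosin, and regulators of its exon choice, were followed in 7 lists of 59 genes. Among them 50 were tested. Of these 50, 20 were higher in Srrm2+/-, 4 were lower and 26 were not called, against 13.6% higher and 11.7% lower over all tested genes. Their median log2 fold change was 0.15, beside -0.00254 for all tested genes. The lists were drawn up with earlier results of these data known, so these counts are a description.

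Of proteins that regulate contraction together with tropomyosin, Cald1 changed most. It encodes caldesmon, which binds actin and tropomyosin in smooth muscle and non-muscle cells, and it stood at 9.17, 7.80 and 8.21 CPM in WT against 70.5, 71.6 and 65.7 CPM in Srrm2+/-. The Srrm2+/- libraries were far above every WT library, with a log2 difference of 3.04 (SE 0.07, adjusted p = 6.58e-08 in edgeR), or 8.25-fold. Of the 8 genes of troponin, the calcium switch of striated muscle, 5 were too low to test and reached at most 23.0 counts in any library. One of these, Tnnt3, named here after its values were seen, lay at 0.0180, 0 and 0 CPM in WT and at 0.159, 0.218 and 0.373 CPM in Srrm2+/-, and it was called higher in all 5 alternatives that tested it, namely the filter of 1 count in all and leaving out WT replicate 1, WT replicate 2, WT replicate 3 or Srrm2+/- replicate 1. Tnni3 (2.58 ± 0.394 CPM in WT against 2.36 ± 0.118 CPM in Srrm2+/-) and Tnnt1 (2.55 ± 0.173 and 2.12 ± 0.253 CPM; SD, n = 3 each) were not called, nor was Tnnc1, which was under 1 CPM.

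Tropomodulins and leiomodins sit at the pointed end of the filament on the last tropomyosin. Tmod3, the abundant tropomodulin here, was at 57.4 ± 0.305 CPM in WT against 58.4 ± 1.77 CPM in Srrm2+/- (SD, n = 3; log2 difference 0.03, SE 0.04). Tmod2 was higher, from 4.69 ± 0.972 to 6.73 ± 0.287 CPM (log2 difference 0.52 with SE 0.15, adjusted p = 0.0325 in edgeR), and lost its call without WT replicate 2 or any 1 of the Srrm2+/- libraries. Lmod1, a leiomodin of smooth muscle named here after its values were seen, was low at 0.305 ± 0.0505 CPM in WT against 1.63 ± 0.165 CPM in Srrm2+/- (log2 difference 2.41 with SE 0.22, adjusted p = 7.77e-05 in edgeR). Lmod3 had 0 counts in every library. Thus 2 of the 4 tested pointed-end genes rose, neither of them the abundant Tmod3, where 13.6% of all tested genes were called higher.

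Formins nucleate the unbranched filaments on which many tropomyosins assemble, and 4 of 12 tested formin genes rose while none fell. The shares over all tested genes were 13.6% higher and 11.7% lower. Fmn2 rose from 3.15 ± 0.212 to 5.89 ± 0.238 CPM (log2 difference 0.90 with SE 0.11, adjusted p = 0.000384 in edgeR). Fmnl2, which acts in protrusions, rose from 20.7 ± 0.512 to 32.5 ± 2.32 CPM (0.65, SE 0.06, edgeR adjusted p = 9.93e-05). Fhod1, a formin of stress fibres, rose from 3.25 ± 0.230 to 4.69 ± 0.289 CPM (0.53, SE 0.12, edgeR adjusted p = 0.00927). Inf2, named here after its values were seen, was the other one called, at 0.891 ± 0.0853 CPM in WT against 1.40 ± 0.112 CPM, and lost its call in 6 of 15 alternatives. Fmn1 was not called (0.16, SE 0.23), and Daam2 had 0 counts in every library.

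The Arp2/3 complex makes branched networks from which tropomyosin is largely kept out. Of its 9 subunit genes 5 rose and none fell, against 13.6% higher and 11.7% lower over all tested genes. Arpc5 rose from 44.3 ± 2.02 to 68.4 ± 3.32 CPM (SD, n = 3; log2 difference 0.62 with SE 0.05; adjusted p = 4.86e-05, edgeR). The other named subunits rose less, Arpc4 by 0.35, Arpc2 by 0.22 and Actr3 by 0.20 on the log2 scale. Actr3 lost its call without WT replicate 2, and Arpc1a, the fifth, without WT replicate 3 or Srrm2+/- replicate 3.

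Among proteins that cut or bundle filaments, 4 of 9 rose and 1 fell, against 13.6% higher and 11.7% lower over all tested genes. Dstn and Cfl1, which encode the actin-severing proteins destrin and cofilin-1, were the most abundant of them. Dstn rose from 549 ± 13.1 to 714 ± 10.2 CPM (log2 difference 0.38 with SE 0.04, adjusted p = 0.000136 in edgeR), and Cfl1 from 418 ± 9.67 to 490 ± 26.0 CPM (0.23, SE 0.05, edgeR adjusted p = 0.00713). Lcp1, the bundling protein L-plastin, rose from 1.94 ± 0.236 to 3.39 ± 0.182 CPM (0.81, SE 0.14, edgeR adjusted p = 0.00332). Fscn1, which encodes the bundling protein fascin, fell by 0.21 on the log2 scale (SE 0.06, edgeR adjusted p = 0.0252), a call lost without WT replicate 2, WT replicate 3, Srrm2+/- replicate 2 or Srrm2+/- replicate 3. Gsn, the severing protein gelsolin, named here after its values were seen, was at 0, 0.277 and 0.373 CPM in WT against 1.43, 1.35 and 1.52 CPM in Srrm2+/-, and its call (edgeR adjusted p = 0.0114) was not made by DESeq2. The log2 difference of Gsn, 2.72 with an SE of 0.61, ran from 2.14 without WT replicate 1, the library at 0, to 3.85 with limma voom.

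The acetyltransferase NatB, which modifies the amino terminus of actin and tropomyosin, changed little. Naa25, its auxiliary subunit, fell by 0.15 on the log2 scale (SE 0.05, edgeR adjusted p = 0.0445), a call lost in 6 of 15 alternatives, and its catalytic subunit Naa20 was not called (0.13, SE 0.05, edgeR adjusted p = 0.0709).

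Regulators known to choose tropomyosin exons in other cells moved both ways, 4 of 10 higher and 2 lower. Over all tested genes the shares were 13.6% and 11.7%. Celf2 rose from 6.86 ± 0.520 to 9.67 ± 0.735 CPM (log2 difference 0.49 with SE 0.09, adjusted p = 0.00508 in edgeR). Ptbp2, the neural relative of the exon repressor Ptbp1, rose from 63.6 ± 2.78 to 79.5 ± 3.97 CPM (0.32, SE 0.05, edgeR adjusted p = 0.0018). Rbm4 fell from 93.5 ± 1.78 to 79.1 ± 2.02 CPM (-0.24, SE 0.04, edgeR adjusted p = 0.00184). Mbnl1 fell from 15.1 ± 2.67 to 11.3 ± 0.129 CPM (-0.42, SE 0.11, edgeR adjusted p = 0.0259), a call lost without any 1 of the Srrm2+/- libraries. The calls of Ptbp1 and Mbnl2 were lost in 6 and 13 of 15 alternatives. Exon choice in the tropomyosin transcripts themselves was not analysed here.

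**Figure D4:**
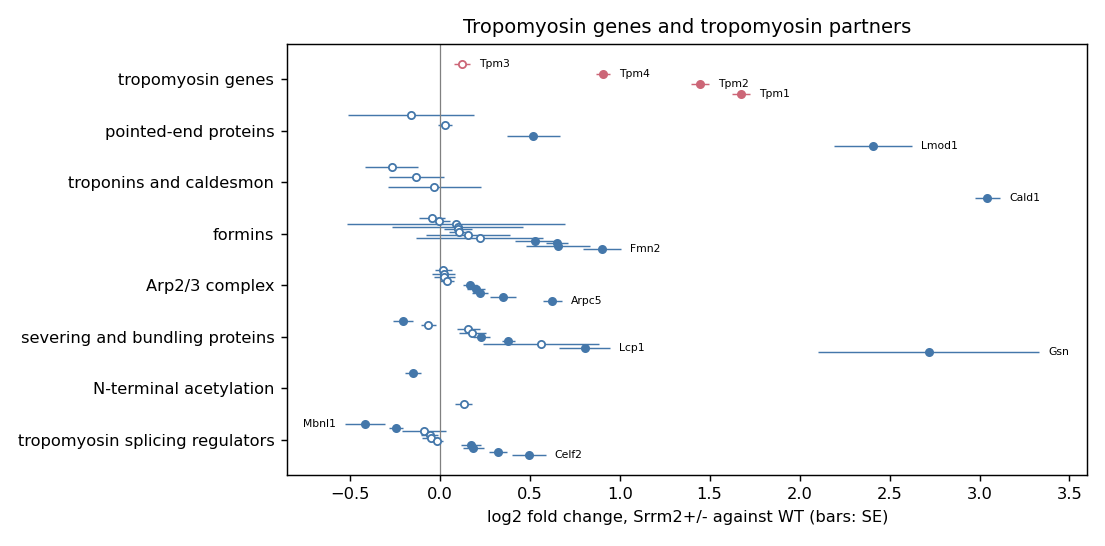
Log2 fold change (Srrm2+/- against WT) of each tested gene of the tropomyosin family and of 7 lists of partner genes, with SE as bars; filled points passed an edgeR adjusted p of 0.05. Cald1 at 3.04, Gsn at 2.72 (2.14 to 3.85 over the alternatives) and Lmod1 at 2.41 lie beyond Tpm1 at 1.68, and the other partners lie below 1.

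Markers of cells in which tropomyosins are abundant were measured beside these values. For comparison with the marker calls, 13.6% of all tested genes were called higher and 11.7% lower. The 9 fibroblast markers summed to 3.91 to 3.96 CPM in WT and 7.30 to 11.2 CPM in Srrm2+/-. Col1a2 was the most abundant of them with at most 3.84 CPM, 4 of the 9 were under 1 CPM in every library, and 4 of the 7 tested were called higher. Of those not called, Pdgfrb had a positive log2 fold change (0.23, SE 0.34), and Thy1 and Pdgfra had negative ones. Thy1 was at 1.93 ± 0.173 CPM in WT against 1.19 ± 0.498 CPM in Srrm2+/- (log2 fold change -0.70, SE 0.27, edgeR adjusted p = 0.0939). It was called lower without Srrm2+/- replicate 3. The 6 smooth muscle markers summed to 20.3 to 21.7 CPM in WT and 27.3 to 30.7 CPM in Srrm2+/-, led by Des at up to 15.1 CPM. Of these, 4 of 6 were under 1 CPM everywhere, so that nearly all of the sum was Des and Smtn. Among the 5 tested, Smtn and Des were called higher. Myocd (log2 fold change 1.07, SE 0.45), Mylk (0.36, SE 0.51) and Synpo2 (-0.60, SE 0.61) were not called, and Myh11 was too low for the main filter. The 10 striated muscle markers summed to 84.9 to 94.4 CPM in WT and 70.7 to 84.96 CPM in Srrm2+/-, nearly all of it Ttn, with Myod1 at 0 in every library and 6 of 10 under 1 CPM. Of the 5 striated markers tested, Myh7, a myosin heavy chain gene, was called higher and none lower in the main fit, with 0.294 ± 0.0778 CPM in WT against 0.936 ± 0.0760 CPM in Srrm2+/- (SD, n = 3; log2 difference 1.66 with SE 0.26; adjusted p = 0.00196, edgeR). Ttn was not called there (log2 fold change -0.19, SE 0.07, edgeR adjusted p = 0.0745), but it was called lower with DESeq2 and with the block on replicate number. Actc1, too low for the main filter, was called higher in 3 of the 5 alternatives that tested it (1 count in all, without WT replicate 2, and without Srrm2+/- replicate 1). The fibroblast and smooth muscle sums, and Myh7, were thus higher in the libraries in which Tpm1, Tpm2 and Tpm4 were higher. The striated muscle sum went the other way, with a slight overlap of the groups. The part of these markers in the result was not tested.

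Genes with the profile most like each member were sought by the root mean square difference of log2 CPM, each gene centred on its own mean, over the 6 libraries and 11961 genes whose mean log2 CPM reached 1. This distance mainly reflects the step between the groups. Nearest to Tpm1 were Vopp1 (0.0843), the transcription factor gene Sall2 (0.0921) and the chemokine gene Cxcl16 (0.0930). Fam102b (0.0550) and Amotl2 (0.0575), which encodes an angiomotin-like protein of cell junctions, were nearest to Tpm2. For Tpm4 they were Anxa5 (0.0328), which encodes annexin A5, Ssbp3 (0.0330) and Ilk (0.0383), the integrin-linked kinase. Tpm3 was nearest to Eftud2 (0.0129), a spliceosomal GTPase, Top1 (0.0153), a DNA topoisomerase, and Tubg1 (0.0172), γ-tubulin. Among the members themselves, Tpm1 and Tpm2 were nearest (0.141) and Tpm1 and Tpm3 farthest apart (0.781).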

How the data were processed

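The authors pseudo-aligned the paired reads with kallisto 0.46.1 to the GENCODE mouse transcriptome and deposited estimated counts per gene on GRCm38, not normalized. Reads from sequence that several transcripts share are split between them in that step. Groups came from the sample titles. Estimated counts were rounded to whole numbers and genes past filterByExpr (minimum count 10, minimum total 15) were fitted with edgeR 4.0.16 in R 4.3.3 (TMM, glmQLFit and glmQLFTest, two-sided, genotype as the sole term, all 6 libraries), with Benjamini-Hochberg adjustment over 18905 genes and a threshold of 0.05. CPM are on TMM-scaled library sizes. GENCODE release M21 gave symbols, positions, lengths and coding sequences for 42156 of 42450 identifiers, and 80 tested genes had no match. Coordinates count from 1.

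The tropomyosin genes, the partner and marker lists and the tests were chosen with earlier results of these data known. Genes named were Srrm2, the members, their copies, the nearest tested coding gene on each side, up to 4 genes per partner list with the largest absolute log2 fold change at a mean log2 CPM of at least 1, list genes called against most of their list, the 3 nearest genes by profile, and the highest and absent markers. One gene that the rule names is not reported here.

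The alternatives tried were DESeq2 1.42.0, voom of limma 3.58.1, normalization by RLE or the upper quartile, looser and stricter filters (1 count in all, or 1 CPM throughout a group), a block on replicate number, leaving out short, ribosomal and mitochondrial RNA genes, leaving out each library, and other transcript lengths. Chosen after seeing the data were no normalization factor and adding the counts of copies to Tpm3 and Tpm4. The scripts were tested on simulated data. Spike-in RNA was not used here.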

Additional observations from a re-analysis of the deposited data

How the results depend on the processing

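Over 17 alternatives the log2 fold change was 1.65 to 1.72 for Tpm1, 1.42 to 1.48 for Tpm2, 0.10 to 0.16 for Tpm3 and 0.89 to 0.93 for Tpm4, with no change of direction. All 4 members were called in place of 3 with DESeq2, with the 1 CPM filter and without Srrm2+/- replicate 2. Replicate numbers did not pair the libraries (correlations of deviations -0.0285, -0.0337 and -0.0300). With the replicate number as a block, 4166 genes were called in place of 4781, 2281 higher and 1885 lower, with 17 partner genes higher and 4 lower, and Tpm3 stayed at 0.12. Calls over all genes numbered 3515 to 4122 with 1 library left out. Partner genes called lower numbered 1 to 4 and those called higher 15 to 21 with 1 library left out, with 1 lower call left without Srrm2+/- replicate 2 or Srrm2+/- replicate 3.

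Shares of summed level moved with the length used, as that sets the divisor of each gene. With the longest coding transcript, the shares in WT and Srrm2+/- were 12.3% and 25.9% for Tpm1, 2.69% and 4.82% for Tpm2, 68.6% and 49.0% for Tpm3, and 16.4% and 20.3% for Tpm4. With the merged exon length they were 11.3% and 21.9%, 4.14% and 6.83%, 51.8% and 34.1%, and 32.7% and 37.1% in the same order. Without a length, Tpm3 held 66.7% and 46.0%, and Tpm4 15.2% and 18.1%. Counts of the members were 726 or more in every library. Spread between the cultures does not measure differences of clone or passage between the groups. The number of cultures, 3 per group, limits the precision.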
